A study of Mus musculus with 12 samples.

Results

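The chromatin of 8 cytoskeletal adaptor genes, Sorbs2, Sorbs3, Pdlim1, Pdlim2, Pdlim3, Pdlim4, Pdlim5 and Pdlim7, was examined in mesenchymal stem cells (MSCs), the stromal precursors of bone, cartilage and fat, from young and old mice. The members are the regions of H3K27ac or H3K27me3 that overlap the body of one of these genes or the 50 kb on either side of it, which gave 56 of the 59664 regions listed for both marks, 39 of H3K27ac and 17 of H3K27me3. The genes were picked with an H3K27me3 difference inside Sorbs2 already known, so the H3K27me3 comparison is given as a description. The H3K27ac comparison rests on other libraries, but these came from the same samples, so it is not independent of that choice. Young mice were 3 to 5 months old and old mice 18 to 22 months old, and all MSCs were kept at 2% oxygen. The labels give no strain, sex, treatment or pooling. CUT&RUN, in which an antibody directs a nuclease to a chromatin mark, was performed with 3 libraries per mark and age, after the cells of a sample had been divided between the antibodies. Nothing in the labels says that the replicates came from separate animals, and p-values therefore measure the spread between these samples.

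The proteins encoded by Sorbs2 and Sorbs3 carry a sorbin homology domain and SH3 domains and link actin stress fibres, focal adhesions and signalling proteins. The Pdlim proteins combine an amino-terminal PDZ domain, which binds alpha-actinin and so places them on actin filaments, with carboxy-terminal LIM domains that bind other proteins. H3K27ac is found at active promoters and enhancers, whereas H3K27me3 is deposited by Polycomb repressive complex, and since both modify the same lysine a histone tail carries at most one of them.

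The H3K27ac libraries were estimated to hold 2750953 to 5541429 reads and the H3K27me3 libraries 3622108 to 9947515 reads, and old replicate 2 was the shallowest for both marks. These totals rest on an assumed constant length of 0.5 kb and were not read from the sources. The signal of a region is its read number scaled to the library and then by the median of ratios, so that the typical region stands at no change. Without that scaling the median log2 change over all regions was -0.12 for H3K27ac and -0.13 for H3K27me3. Of 9 MSC marker genes, 9 had an H3K27ac region over the start site. The same was true of 2 of 5 blood, 1 of 4 endothelial, 1 of 5 skeletal muscle and 3 of 4 smooth muscle markers. The summed H3K27ac signal at the start sites ranged from 108 to 117 in young and from 92.8 to 109 in old libraries for blood markers, from 6.53 to 8.22 and from 7.17 to 11.01 for endothelial markers, from 8.66 to 9.54 and from 7.86 to 11.2 for skeletal muscle markers, and from 194 to 203 and from 218 to 231 for smooth muscle markers. With limma, edgeR and DESeq2 0 gene windows of the 5 marker lists were called in either mark, while an unadjusted limma p was under 0.05 for 1 endothelial and 2 smooth muscle genes in H3K27ac and for 1 skeletal muscle gene in H3K27me3. The part of other cells in the values below was not tested.

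The 8 genes lie at 6 loci, since Sorbs2 and Pdlim3 are neighbours on chromosome 8 and Pdlim2 and Sorbs3 are neighbours on chromosome 14. Promoters from RefSeq (GRCm38.p6, 300 bases at the start site, mostly upstream of it) are shown for members with a start site inside a region, to compare the CpG content of promoters found in either mark. An entry was matched for 6 of the 8 genes, and Sorbs3 and Pdlim2 were not analysed here for promoter sequence. Sorbs2, Pdlim7, Pdlim1 and Pdlim5 follow the order of the change of the region at the start site. Pdlim3 was added after its values were seen, because its promoter lay in H3K27me3. The windows are chr8:45507538-45507837 and chr8:45661743-45662042 on the plus strand for Sorbs2, chr13:55513397-55513696, chr19:40271567-40271866 and chr3:142395647-142395946 on the minus strand for Pdlim7, Pdlim1 and Pdlim5, and chr8:45885237-45885536 on the plus strand for Pdlim3. Each is written 5′ to 3′ with CpG dinucleotides in capitals.
Sorbs2 upstream start: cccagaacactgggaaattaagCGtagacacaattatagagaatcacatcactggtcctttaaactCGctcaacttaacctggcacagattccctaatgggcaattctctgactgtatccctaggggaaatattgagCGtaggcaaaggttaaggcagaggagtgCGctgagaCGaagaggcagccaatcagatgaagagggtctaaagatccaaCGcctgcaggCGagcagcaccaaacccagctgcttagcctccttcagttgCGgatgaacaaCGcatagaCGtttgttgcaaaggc
Sorbs2 internal start: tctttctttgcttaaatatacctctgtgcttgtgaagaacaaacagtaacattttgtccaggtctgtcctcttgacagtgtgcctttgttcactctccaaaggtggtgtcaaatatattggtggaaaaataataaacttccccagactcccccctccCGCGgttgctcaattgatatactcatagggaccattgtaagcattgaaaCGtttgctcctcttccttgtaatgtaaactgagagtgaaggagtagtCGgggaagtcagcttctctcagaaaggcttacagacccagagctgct
Pdlim7: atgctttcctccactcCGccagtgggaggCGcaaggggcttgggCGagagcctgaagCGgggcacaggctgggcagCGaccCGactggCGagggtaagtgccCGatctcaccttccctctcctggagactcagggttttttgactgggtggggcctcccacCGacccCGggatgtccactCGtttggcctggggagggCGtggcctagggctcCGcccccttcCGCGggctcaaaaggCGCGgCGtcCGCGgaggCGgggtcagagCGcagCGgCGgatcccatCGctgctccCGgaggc
Pdlim1: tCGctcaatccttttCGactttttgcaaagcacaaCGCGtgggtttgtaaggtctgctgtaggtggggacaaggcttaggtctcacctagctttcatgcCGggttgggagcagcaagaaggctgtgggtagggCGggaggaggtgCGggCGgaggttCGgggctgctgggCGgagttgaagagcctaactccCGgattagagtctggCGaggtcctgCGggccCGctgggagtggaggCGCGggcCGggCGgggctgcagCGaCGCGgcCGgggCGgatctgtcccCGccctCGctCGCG
Pdlim5: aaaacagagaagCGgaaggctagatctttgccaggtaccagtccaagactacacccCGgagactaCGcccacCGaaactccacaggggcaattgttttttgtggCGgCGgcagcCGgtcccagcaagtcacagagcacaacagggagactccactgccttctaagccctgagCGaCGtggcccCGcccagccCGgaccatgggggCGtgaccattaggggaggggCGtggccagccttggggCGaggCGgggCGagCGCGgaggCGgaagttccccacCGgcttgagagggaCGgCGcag
Pdlim3: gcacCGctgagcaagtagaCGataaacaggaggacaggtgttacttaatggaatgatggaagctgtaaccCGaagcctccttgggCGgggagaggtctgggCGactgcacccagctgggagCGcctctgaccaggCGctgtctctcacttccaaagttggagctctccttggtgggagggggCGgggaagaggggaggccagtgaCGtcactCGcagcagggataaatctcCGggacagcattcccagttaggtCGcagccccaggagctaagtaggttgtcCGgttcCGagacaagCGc

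The upstream Sorbs2 promoter held 10 CpG and the internal promoter 4 CpG, against a median of 7 over 32851 promoters. Pdlim3, also inside H3K27me3, held 15 CpG. The promoters printed for Pdlim5, Pdlim7 and Pdlim1 held 22, 26 and 27 CpG and that of Pdlim4 held 31 CpG. Each of these lay inside an H3K27ac region and outside H3K27me3 regions, as did a second Pdlim5 promoter with 2 CpG, so the CpG count alone did not sort the promoters by mark. The GC box GGGCGG, read on both strands, was found in the former 4 promoters (1, 1, 6 and 3 matches, in that order) and in Pdlim3 (2 matches) but in none of the 3 Sorbs2 promoters, and 35.7% of all promoters hold it. The muscle element MCAT (CATTCC on either strand) occurred in Pdlim3, with 2 matches, and is held by 14.7% of all promoters. The TATA sequence TATAAA (held by 13.6%) was found in that second Pdlim5 promoter, and a CArG box (held by 1.63%) in 0 of the 9 member promoters examined. None of these matches shows that a factor binds there.

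The gene bodies differed in the mark they carried. Pdlim4, Pdlim5, Pdlim7, Pdlim2 and Sorbs3 lay inside H3K27ac regions over 100% of their length, and Pdlim1 over 74.7%. Pdlim3, which encodes the actinin-associated LIM protein of muscle, had no H3K27ac region in its body, whereas H3K27me3 regions covered 88.3% of it. Sorbs2 was mixed, with 29.2% of its 320 kb inside H3K27ac and 27.8% inside H3K27me3 regions. H3K27me3 covered 12.5% of Pdlim2 and none of the bodies of Sorbs3, Pdlim1, Pdlim4, Pdlim5 and Pdlim7. For comparison, 60.5% of protein-coding genes had an H3K27ac region and 36.0% an H3K27me3 region in the body.

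**Figure D1:**
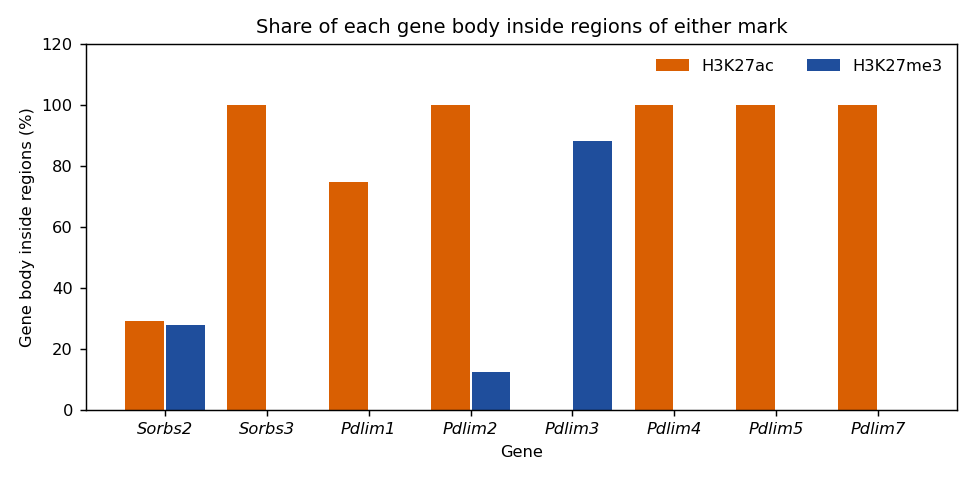
Share of each gene body, in percent of its length, that lay inside regions of H3K27ac (orange) and H3K27me3 (blue). Sorbs2 carried both marks over 29.2% and 27.8% of its body, Pdlim3 carried H3K27me3 over 88.3%, and the other 6 genes were covered by H3K27ac over 74.7% to 100%.

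At the start sites, the H3K27ac signal per kb in young MSCs was highest for Pdlim4 (3.28 ± 0.416 per kb, SD, n = 3). It was 2.57 ± 0.303 and 2.09 ± 0.161 in the regions over 4 internal starts and over the fifth internal start of Sorbs2, 2.53 ± 0.115 for Pdlim5, 2.26 ± 0.10 for Pdlim7, 2.06 ± 0.128 for the region shared by Sorbs3 and Pdlim2 and 2.05 ± 0.159 for Pdlim1. In the order of these levels, the ranges of mean ± SD of neighbours overlapped, except those of Pdlim5 and Pdlim7. In old MSCs these Sorbs2 values were 1.89 ± 0.475 and 1.43 ± 0.768 per kb, the lowest means of the 7 regions, while Pdlim4 stood at 3.24 ± 0.586. The median over all H3K27ac regions was 2.20 per kb.

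Sorbs2 had less H3K27ac in old MSCs. The summed signal of its 20 regions in the window was 239, 231 and 241 in the young and 189, 158 and 169 in the old libraries. Every old library thus lay below every young one, with means of 237 ± 5.58 and 172 ± 15.5 (SD, n = 3) and a ratio of 0.724. The log2 change of -0.47 ± 0.076 (SE) passed the test (limma, adjusted p = 0.000104), which made Sorbs2 the 1 member of 8 with a called H3K27ac gene window, against 0.684% of 17248 protein-coding genes called in either direction and 0.272% called as lower. The call held when each library was left out in turn, with a log2 change between -0.54 and -0.41 and a highest limma adjusted p of 0.00807. It was lost when limma was run without the variance trend and robust moderation (adjusted p = 0.317).

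**Figure D2:**
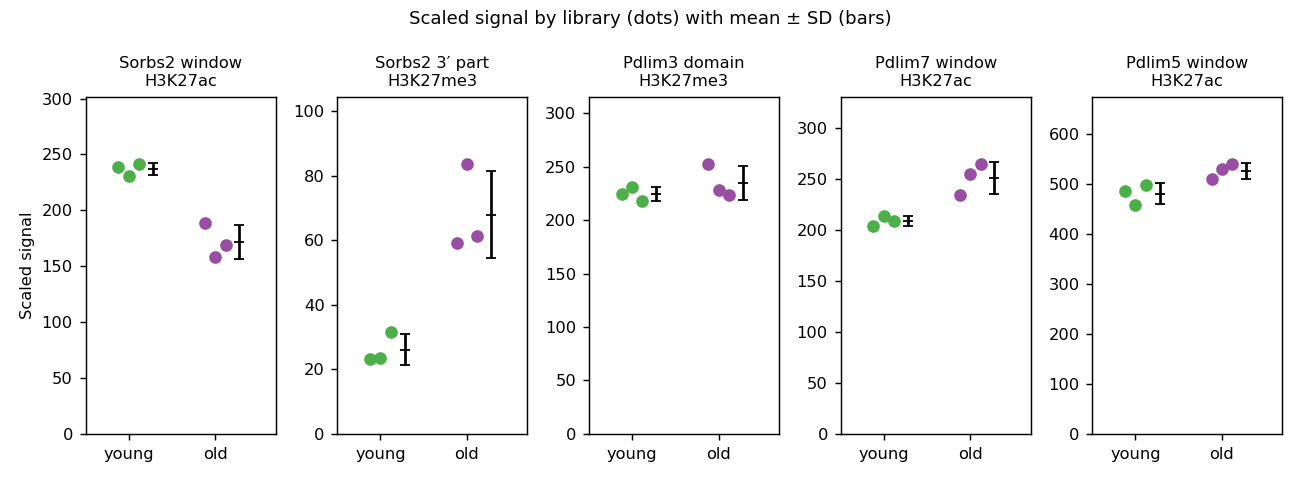
Scaled signal (y axes, from 0) of young and old libraries (dots), with the mean ± SD beside them (n = 3), for 3 H3K27ac gene windows and 2 H3K27me3 regions. The old libraries lay below the young ones for H3K27ac of Sorbs2 (158 to 189 against 231 to 241) and above them for H3K27me3 in the 3′ part of Sorbs2 (59.2 to 83.6 against 23.1 to 31.6), and they overlapped in the Pdlim3 domain.

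The decrease was spread along the gene. Of the 19 H3K27ac regions in the Sorbs2 body, 1.5 to 11.5 kb long, 18 had a fitted change below 0, with a median of -0.59, whereas 50.4% of all H3K27ac regions had a change below 0 and their median was -0.0028. In 6 of the 19 every old library lay below every young one, against 7.42% of all H3K27ac regions. Near the other 7 genes no H3K27ac region was separate in this direction, and 6 regions had every old library above every young one, against 7.09% of all regions. Regions of the same gene share their source and are no replicates. Taken singly, none of them was called: of the 39 H3K27ac regions near the 8 genes 0 passed limma at an adjusted p under 0.05, against 0.0822% of all regions, and 11 of 39 had an unadjusted p under 0.05, against 9.6%. DESeq2 called 0 and edgeR 1 of them. The median change of the 39 was -0.16. Sorbs2 weighs on these figures, since 20 of the 39 regions lay in its window. Of the 11 regions with an unadjusted p under 0.05, 8 lay in its body. The largest negative change lay in an intron 31.6 kb from the upstream start sites (chr8:45539501-45543500), a region that the authors' table gives the state of young alone. Its signal was 8.49, 10.4 and 12.5 in young and 3.19, 5.50 and 4.59 in old libraries, which held 7 to 38 reads each. The groups did not overlap, and the log2 change was -1.17 ± 0.30 (limma, adjusted p = 0.138). EdgeR on whole reads, which called 0.329% of all regions, called this one (adjusted p = 0.0422), as did limma on the signal as deposited (adjusted p = 0.0465). Because the region was listed through the young state alone, a lower old signal is in part set by that listing, and nothing is read from these calls. The same region is among the 18 and the 6 regions counted above and enters their median. Its means of 10.5 in young and 4.43 in old libraries are part of the Sorbs2 window means of 237 and 172.

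The internal start sites of Sorbs2 carried both marks. The GENCODE basic set lists 10 start sites for the gene, 5 of them at the upstream end and 5 internal, and all 10 lay inside H3K27me3 regions, while the 5 internal ones also lay inside H3K27ac regions. The H3K27ac region over 4 internal starts (chr8:45657001-45664000, with 5 untranslated exons) had a signal of 19.6, 15.6 and 18.7 in young and 15.5, 9.44 and 14.8 in old libraries. The highest old value lay just under the lowest young value, and the log2 change was -0.45 ± 0.22 (limma, adjusted p = 0.515), or -0.23 without old replicate 2. The region over the fifth internal start (chr8:45625501-45630000) had a log2 change of -0.64 ± 0.32 with overlapping groups (limma, adjusted p = 0.524), which was -0.23 without old replicate 3 and -1.01 without old replicate 1. In an intron, the region chr8:45728501-45731500 had 6.21, 6.35 and 5.92 in young and 3.19, 3.15 and 2.55 in old libraries, a log2 change of -0.95 ± 0.36 that did not pass limma (adjusted p = 0.368).

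H3K27me3 over Sorbs2 was higher in old MSCs, which is the contrast the genes were chosen on. The largest difference covered the 3′ part of the gene (chr8:45782501-45825000, 42.5 kb, with 16 annotated exons), a region of the old state in the authors' table, which lists 3 such H3K27me3 regions in all. Its signal was 23.1, 23.5 and 31.6 in young libraries, from 117 to 121 reads each, and 59.2, 83.6 and 61.2 in old libraries, from 147 to 271 reads each. The old values were 2.60 times the young values on average, and the log2 change was 1.36 ± 0.15. Per kb the signal was 0.614 in young MSCs, below 99.97% of all H3K27me3 regions, and 1.6, below 41.7% of them in old MSCs. Because the region was listed through the old state alone, a low rank in young MSCs is in part set by that listing.

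Further H3K27me3 regions of Sorbs2 differed in the same direction. The region over 4 internal start sites (chr8:45657001-45669500) had a signal of 10.7, 9.46 and 10.7 in young and 19.9, 19.3 and 17.8 in old libraries, a log2 difference of 0.85 ± 0.17. The region chr8:45728501-45751500, over 5 exons, had 17.0, 18.3 and 26.4 in young and 30.3, 39.8 and 40.6 in old libraries, a log2 difference of 0.84 ± 0.17. The groups were separate in both regions, and the young signal per kb was lower than in 99.9% and 99.8% of all regions. The genes were picked with an H3K27me3 difference inside Sorbs2 known, so these low ranks in young MSCs can in part follow from that choice. The domain over the 5 upstream start sites (chr8:45482501-45512000) differed less, with 45.6, 33.6 and 47.3 in young and 51.1, 54.6 and 56.4 in old libraries and a log2 difference of 0.37 ± 0.13, or 0.21 without young replicate 2. The region over the fifth internal start (chr8:45626501-45630500) had a log2 difference of 0.23 ± 0.22 with overlapping groups. Of the 17 H3K27me3 regions near the 8 genes, 6 had every old library above every young one, beside 8.56% of all regions, and 1 had every old library below, beside 10.6%. With limma 3 of the 17 H3K27me3 regions near the 8 genes were called, all 3 higher in old and inside Sorbs2, beside 0.488% of all regions and 0.082% called as higher, and nothing is read from this count because the contrast chose the genes. The count was 1 without young replicate 1 or young replicate 2, when the 42.5 kb region was the one left, and 2 without young replicate 3, old replicate 1 or old replicate 3.

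At 4 positions in Sorbs2 regions of both marks overlapped, by 3000 to 7000 bp. At each of them H3K27ac had a negative and H3K27me3 a positive fitted change, and in 3 of the 4 the groups were separate in both marks. The same share over all overlaps of the marks was not computed. The H3K27me3 side is the contrast the genes were chosen on, so nothing is read from this count. In the 3′ part the H3K27ac region chr8:45814001-45817000 had 9.80, 9.81 and 8.22 in young and 7.57, 2.36 and 7.13 in old libraries. Its log2 change was -0.80 ± 0.33 (limma, adjusted p = 0.425). Few reads lie behind these values, with 30, 17 and 25 in young and 19, 3 and 14 in old libraries. The overlapping H3K27ac region chr8:45728501-45731500 held 19, 11 and 18 reads in young and 8, 4 and 5 in old libraries. The 15 H3K27ac regions of the body that overlapped no H3K27me3 region had a median change of -0.44, against -0.72 for the 4 that did, and the difference between these sets was not tested.

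**Figure D3:**
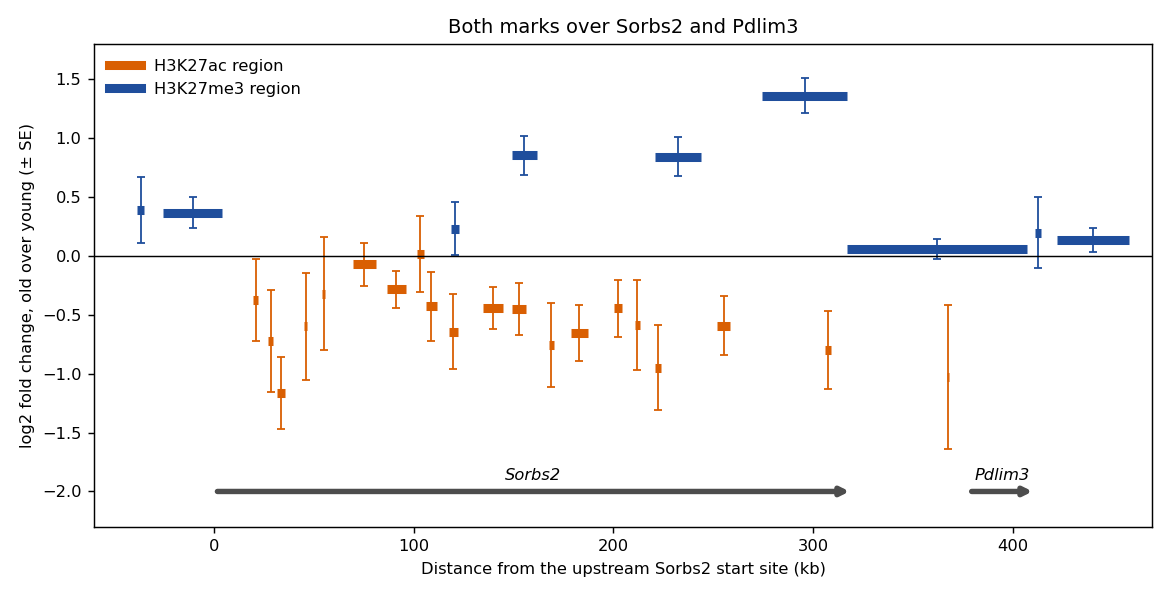
Log2 fold change of old over young (y axis, ± SE of the limma fit) of every H3K27ac (orange) and H3K27me3 (blue) region in the windows of Sorbs2 and Pdlim3, against the distance from the upstream Sorbs2 start site in kb; bars span the regions and arrows the genes. H3K27ac changes lay below 0 in 18 of 19 regions of the Sorbs2 body and H3K27me3 changes above 0, up to 1.36, while the 90 kb domain over Pdlim3 stood at 0.06.

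The adjoining domain over Pdlim3 was denser in H3K27me3 at both ages. The 42.5 kb region ends where a 90 kb H3K27me3 domain begins (chr8:45825001-45915000, a gap of 0 bp), 2.91 kb before the end of Sorbs2. That domain covered the last part of Sorbs2, the 57.6 kb between the genes and both start sites of Pdlim3. Its signal was 225, 231 and 218 in young and 253, 228 and 224 in old libraries. The groups overlapped, with a log2 difference of 0.06 ± 0.083, which stood at -0.06 on the signal as deposited. Whether its change differed from that of the adjoining region was not tested. Per kb it held 2.50 ± 0.0721 in young and 2.61 ± 0.172 in old MSCs, so that 8.92% and 5.73% of all H3K27me3 regions were denser. The nearest H3K27ac to Pdlim3 was a 1 kb region 9.46 kb before the gene (chr8:45875001-45876000), with 3.92, 3.46 and 1.64 in young and 1.99, 0 and 3.06 in old libraries, or 0 to 12 reads. The groups overlapped, and its fitted log2 change of -1.03 ± 0.61 depends on the pseudocount since old replicate 2 held no read (limma, adjusted p = 0.628), and it was -0.17 without that library and -1.58 without old replicate 3.

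The 6 other genes had broad H3K27ac, and none of their H3K27ac regions or windows passed the test. Pdlim7, the Enigma protein of actin fibres and bone signalling, lay in a 52.5 kb H3K27ac region (chr13:55461501-55514000) that also holds the start sites of Dbn1 and Prr7. Its signal was 115.6, 115.4 and 124.7 in young and 136.3, 145.5 and 165.1 in old libraries. Every old library lay above every young one, and the log2 change was 0.32 ± 0.089 (limma, adjusted p = 0.161). For the whole Pdlim7 window the signal was 203.8, 213.5 and 209.2 against 234.0, 254.8 and 264.5, a log2 change of 0.26 ± 0.073 (limma, adjusted p = 0.0647), which stood at 0.14 on the signal as deposited. This window was called when old replicate 1 was left out (limma, adjusted p = 0.0261) and when the flanks were cut to 10 kb. A 1.5 kb region upstream of the gene (chr13:55522501-55524000) had a log2 change of 0.67 ± 0.38 (limma, adjusted p = 0.595), and no H3K27me3 region fell in the window.

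Pdlim5, the Enigma homologue of heart and other tissues, was covered by an H3K27ac region of 178 kb (chr3:142222501-142400500), number 32 by length among 31617. Its signal was 456.7, 428.2 and 468.0 in young and 475.1, 491.5 and 504.0 in old libraries. The groups were separate by a narrow gap, and the log2 change was 0.12 ± 0.055 (limma, adjusted p = 0.476), which stood at 0.0015 on the signal as deposited. Outside the gene, an H3K27me3 region 8.3 kb upstream (chr3:142404001-142406000) had 4.35, 3.22 and 4.18 in young and 2.18, 1.14 and 3.17 in old libraries, a log2 difference of -0.80 ± 0.34 that was -0.48 without old replicate 2.

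Pdlim1, which binds alpha-actinin at stress fibres, had H3K27ac over the middle of its body (chr19:40230001-40263000) with 80.7, 85.4 and 89.5 in young and 100, 119 and 94.3 in old libraries. The groups did not overlap, and the log2 change was 0.29 ± 0.10 (limma, adjusted p = 0.320). At the start site (chr19:40267001-40272000) the values were 9.80, 9.81 and 11.2 against 8.37, 20.4 and 11.7. The log2 change of 0.29 ± 0.26 (limma, adjusted p = 0.776) was -0.05 without old replicate 2, the highest library. The log2 change of the whole Pdlim1 window was 0.02 ± 0.054 (limma, adjusted p = 0.923), which turned to -0.10 on the signal as deposited. This window also holds H3K27ac regions beyond the gene, and over the gene body alone the log2 change was 0.29 ± 0.099 (limma, adjusted p = 0.185). An H3K27me3 region in the same window but beyond the gene, at Cyp2c70 (chr19:40159501-40191500), had a log2 difference of 0.37 ± 0.12 with separate groups.

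Pdlim2, which acts in the degradation of transcription factors, and Sorbs3, which encodes the vinculin-binding vinexin, share 1 H3K27ac region of 79 kb (chr14:70135001-70214000) over all their start sites and those of Ccar2 and 9930012K11Rik. Its signal was 159, 174 and 155 in young and 171, 167 and 185 in old libraries, so that the groups overlapped. The log2 change of 0.10 ± 0.080 (limma, adjusted p = 0.740) turned to -0.02 on the signal as deposited. A 3 kb H3K27me3 region at the Pdlim2 start (chr14:70176001-70179000), inside that H3K27ac region, had a log2 difference of -0.29 ± 0.28 with overlapping groups. Upstream of Sorbs3, the H3K27ac region chr14:70239501-70248500 had a log2 change of 0.40 ± 0.21 (limma, adjusted p = 0.546).

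Pdlim4, which encodes the RIL protein, had overlapping groups in H3K27ac. Its H3K27ac region (chr11:54050001-54073000) had 65.0, 77.3 and 83.9 in young and 77.7, 59.8 and 86.1 in old libraries. The log2 change of -0.02 ± 0.12 (limma, adjusted p = 0.972) was above 0 in edgeR and DESeq2 (0.02 and 0.0045) and without young replicate 3 or old replicate 2 (0.06 and 0.13). An H3K27me3 region beyond the gene body (chr11:54040001-54046000) had 9.68, 7.85 and 8.63 in young and 9.82, 10.2 and 11.4 in old libraries. The groups were separate by a narrow gap, with a log2 difference of 0.26 ± 0.20. A 1 kb H3K27me3 region upstream (chr11:54078001-54079000) had a log2 difference of -0.51 ± 0.38.

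**Figure D4:**
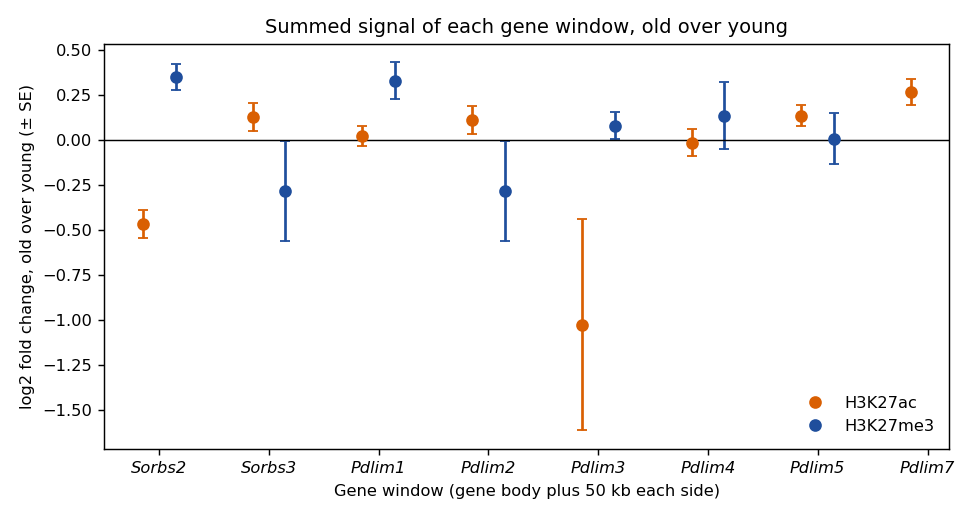
Log2 fold change of old over young (± SE of the limma fit) of the summed signal in each gene window, the body plus 50 kb on each side, for H3K27ac (orange) and H3K27me3 (blue). Sorbs2 stood at -0.47 for H3K27ac and 0.35 for H3K27me3, Pdlim7 at 0.26 for H3K27ac with no H3K27me3 region, Pdlim3 at -1.03 for H3K27ac on 1 region of 0 to 12 reads, and the windows of Sorbs2 with Pdlim3 and of Sorbs3 with Pdlim2 share regions.

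Summed over the window, H3K27me3 of Sorbs2 was 331, 329 and 345 in young and 426, 438 and 415 in old libraries, a log2 difference of 0.35 ± 0.073. It was the 1 member window called for this mark, beside 0.436% of 17445 genes and 0.12% called as higher. The contrast chose the genes, so nothing is read from this call. The sum also includes the 42.5 kb region listed through the old state alone, with means of 26.1 in young and 68.0 in old libraries. That call was lost without young replicate 1, 2 or 3 or without old replicate 1 or 2, and it held without old replicate 3. The Pdlim3 window, which shares the 90 kb domain, showed 0.08 ± 0.076.

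The balance of the marks, log2 of the H3K27ac over the H3K27me3 sum of a window, was taken per sample number because the cells of a sample had been divided between the antibodies. It is a description, as it contains the H3K27me3 values. The Sorbs2 sums include the H3K27ac region listed through the young state alone and the H3K27me3 region listed through the old state alone. Nothing is therefore read from the rank or the separation of Sorbs2 given below. For Sorbs2 it was -0.47, -0.51 and -0.51 in young and -1.17, -1.47 and -1.30 in old samples, a difference of -0.81 that was lower in 0.6% of 15661 genes. In young MSCs this level lay near the middle of all genes, with 49.9% of them lower. For Pdlim1 it was 3.604, 3.650 and 3.747 in young and 3.306, 3.304 and 3.473 in old samples, a difference of -0.31 to which the H3K27me3 region at Cyp2c70 contributed, since no H3K27me3 region lay in its body. In young MSCs a 229.5 kb region beyond Pdlim1 (chr19:40295001-40524500) held 633 of the mean H3K27ac sum of 736 in its window. Sorbs2 and Pdlim1 were the 2 of 7 members without overlap, both lower in old, beside 19.3% of all genes and 5.83% in that direction. With flanks of 10 kb Pdlim1 was no longer among them, and Pdlim5 was separate and higher in old. Pdlim3 stood far below the others at -6.46 ± 0.552 in young and -7.56 ± 1.50 in old samples, with overlapping groups and an H3K27ac sum of few reads. The group means of Sorbs3, Pdlim2, Pdlim4 and Pdlim5 ranged from 4.43 to 4.99 in young and from 4.28 to 5.39 in old samples. Pdlim7 has no value.

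**Figure D5:**
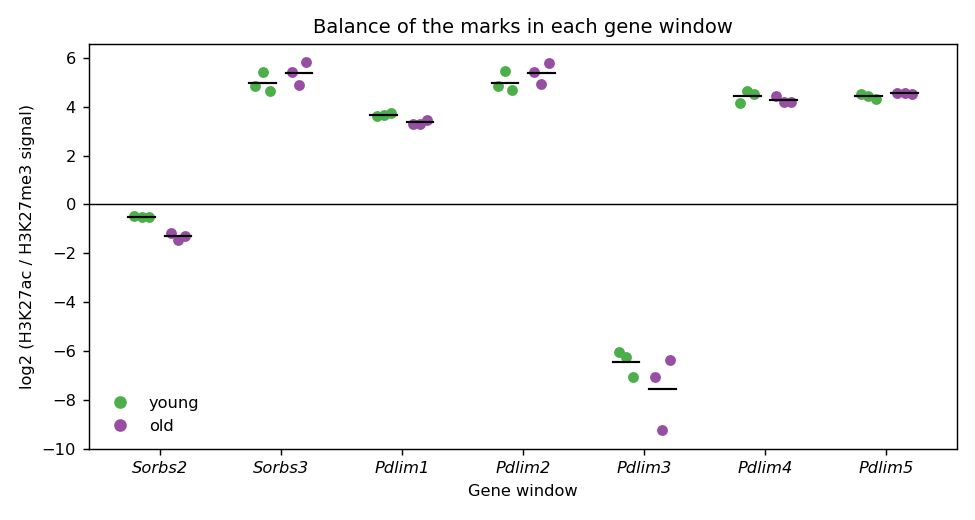
Balance of the marks, log2 of the H3K27ac over the H3K27me3 signal of each gene window (y axis), in young (green) and old (purple) samples, with the mean of each group as a line (n = 3). Sorbs2 lay below 0 with means of -0.50 in young and -1.31 in old samples, Pdlim3 lay below -6 in every sample, and the other 5 genes lay above 3.

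Genes of related function were taken from lists. Of 45 related genes, 43 had an H3K27ac region and 6 an H3K27me3 region within 1 kb of a start site, beside 53.7% and 33.9% of 21938 protein-coding genes. With limma, edgeR or DESeq2 0 of 45 gene windows were called for H3K27ac and 0 of 38 for H3K27me3. An unadjusted limma p was under 0.05 for 5 of 45, against 12.1% of all genes, and for 5 of 38, against 14.4%. Their median window change was 0.03 for H3K27ac, beside 0.03 for all genes, and -0.03 for H3K27me3. For H3K27ac the change was 0.00076 for Ldb3, another PDZ and LIM gene, and the median was -0.02 for 4 alpha-actinins, 0.03 for 19 LIM and focal adhesion genes, 0.06 for 12 contractile genes and 0.04 for 9 genes of the SRF and YAP pathways. Among the alpha-actinins, the partners of the Pdlim proteins, the widely expressed Actn1 and Actn4 were covered by H3K27ac over 100% of their bodies, whereas the muscle genes Actn2 and Actn3 lay inside H3K27me3 over 67.1% and 100%.

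The genes whose body signals varied most like those of Sorbs2 across the 12 libraries were Sox6, Plcl1 and Nuggc. Likeness was the root mean square difference of log2 sums centred within each mark, which was 0.0895, 0.0898 and 0.0956, against a median of 0.249 over 17776 genes. Only 7902 genes had an H3K27me3 region in the body, so that median includes genes without this mark. The 3 genes were chosen by these values, so the direction of the means below follows from the choice. H3K27ac of Sox6, a transcription factor of cartilage, was 397 in young and 297 in old MSCs on average, and its H3K27me3 was 110 and 129. For Plcl1 the means were 48.8 and 36.0 in H3K27ac and 185 and 217 in H3K27me3, and for Nuggc 29.2 and 22.1 and 49.3 and 57.8.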

How the data were processed

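The authors deposited, for each mark, 1 table with a signal for every region and replicate, the regions having been called on both ages together. Per the labels, Bowtie2, Picard and GRCm38 (mm10) were used, and the peak caller and the duplicate treatment are not given in the sources used here. The tables are named RPKM, but 100% of values were whole multiples (tolerance 0.01 reads) of 1 step per library whatever the region length, so the signal was not divided by length. Whole reads of a region were recovered by taking that step as 1 read. The library totals were estimated from the step, assuming a constant length of 0.5 kb. The planned test was kept. Regions were placed on GENCODE vM21 (basic set). Columns were scaled by the median of ratios, and log2(signal + 0.5) was modelled in limma 3.58.1 (R 4.3.3, trend and robust), two-sided, with Benjamini-Hochberg adjustment over the whole table and a threshold of 0.05. The added 0.5 draws the fold of a weak region towards no change. The fitted fold can still lie further from no change than the ratio of the means. For chr8:45875001-45876000 it was 0.49, against a ratio of 0.56. Gene windows were tested in the same way on the summed signal of every protein-coding gene, and errors and folds come from these fits. Alternatives used edgeR 4.0.16 and DESeq2 1.42.0 on whole reads. The fits were tested on simulated data. No pair of libraries agreed within counting noise (chi-square per degree of freedom from 1.12 to 1.99). The number of per-sample columns not used was 0.

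The genes, lists and tests were chosen with earlier results of these data known. Named were regions at start sites (within 1 kb), called regions, and the 3 largest changes per mark and direction, with the promoters of up to 4 genes and the 3 genes most like Sorbs2. Others are said to be added. Labels give no batch, so batch and age cannot be told apart. The publication supplied compares oxygen levels and was used for style alone. Yeast DNA was not analysed here, and 1 gene of the related lists is not reported here.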

Additional observations from a re-analysis of the deposited data

How the results depend on the processing

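Over 41 results, 619 alternative values were computed; of the counts, 68 were within 1.5 times the reported value and 22 were not. H3K27ac regions called near the 8 genes numbered 1 in place of 0 on the signal as deposited and in edgeR. Called H3K27ac windows numbered 0 in place of 1 with limma without trend and robust moderation, 2 with flanks of 10 kb, and 1 to 2 when each replicate was left out. H3K27me3 regions called numbered 0 in place of 3 with limma without trend and robust moderation, 1 in DESeq2, which gave the other 2 no adjusted p, and 1 to 3 over omitted replicates. Called H3K27me3 windows numbered 0 in place of 1 on the signal as deposited and without trend and robust moderation, and 0 to 1 over omitted replicates, and with flanks of 100 kb the 1 call was Pdlim2 and not Sorbs2. Windows with separate balances numbered 1 in place of 2 on the signal as deposited and for the body alone, 5 with flanks of 100 kb, and 2 to 4 over omitted replicates. They numbered 2 with flanks of 10 kb, but these were Sorbs2 and Pdlim5, the latter higher in old, and not Pdlim1. With the replicate number as a block, the called H3K27me3 windows numbered 0 in place of 1; samples of the same number did not deviate together (H3K27ac r from -0.054 to 0.066, H3K27me3 r from -0.078 to 0.043), so the numbers do not pair the samples, and the block moved none of the other 3 tested counts and was not fitted to the balance. The sign turned for 12 values of H3K27ac. On the signal as deposited these were the windows of Pdlim1 (-0.0986) and Pdlim2 (-0.0082) and the start region of Sorbs3 and Pdlim2 (-0.0192), and for the start region of Pdlim4 they were edgeR (0.0183) and DESeq2 (0.0045). The others came from omitted replicates, over which the Pdlim1 window ranged from -0.0312 to 0.0651, the Pdlim4 window from -0.0589 to 0.0466, the Pdlim4 start region from -0.137 to 0.125 and the Pdlim1 start region from -0.0454 to 0.574. For H3K27me3 the sign turned on the signal as deposited for the 90 kb domain over Pdlim3 (-0.0616) and the windows of Pdlim3 (-0.0450) and Pdlim5 (-0.115), and over omitted replicates the Pdlim5 window ranged from -0.0366 to 0.0850. The cause was not tested. Regions of few reads limit the precision: 5 of the 39 H3K27ac regions and 2 of the 17 H3K27me3 regions had a library at or under 3 reads.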
